A study of Rattus norvegicus with 54 samples.

Results

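The comparison set livers of untreated obese rats against livers of lean rats, across all transcripts that Affymetrix Rat Expression 230A arrays measure. The arrays were chosen by their titles: 3 of untreated obese liver and 3 of lean liver, 6 of the 54 arrays of the study. All rats were male Zucker rats. The obese rats carried the fatty genotype fa/fa and had normal chow without a ligand, and the lean rats carried fa/+ and had normal chow too, so both groups carry the fa allele, the lean rats in 1 copy. The other 12 liver arrays came from fa/fa rats given pioglitazone, rosiglitazone, troglitazone or AG035029, ligands of the nuclear receptor PPARγ, and entered the estimate of the spread. The study also sampled epididymal adipose tissue and gastrocnemius muscle. Each array held pooled RNA of 2 rats, so a group of 3 arrays stands for 6 rats, and differences between the rats of a pool are not seen. Ages are not given in the labels used here.

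The fa allele is a missense change in the leptin receptor. Rats with 2 such copies do not respond to leptin, the satiety hormone of fat cells, and are known for overeating, high plasma insulin and fatty livers. In liver, insulin and glucose together drive the conversion of sugar to fat: the transcription factor SREBP-1c, encoded by Srebf1, answers to insulin, and ChREBP, encoded by Mlxipl, answers to sugar. A second programme of rat liver depends on sex. Pulses of growth hormone in males keep male-biased genes high, and the steadier hormone level of females keeps another set high. Because fa changes the sequence of the receptor and not the presence of its RNA, the level of Lepr does not check the labels. Lepr gave signals of 249, 157 and 66 in obese livers, against 260.1, 254 and 268 in lean livers on its brightest probe set (log2 difference -0.81 ± 0.38, adjusted p = 0.507). Another tested probe set, 1369739_at, had overlapping groups and the other sign (log2 difference 0.07 ± 0.34, adjusted p = 0.97).

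Levels below are MAS5 signals, the linear brightness of a probe set (a group of short probes for 1 transcript) after scaling to a common trimmed mean of 500 on each array. Differences are obese minus lean on the scale of log2(signal + 20), given with their standard error from limma (n = 3 arrays each), and p-values are limma's, adjusted by Benjamini-Hochberg over 9519 probe sets. A gene is said to have risen or fallen where its adjusted p was under 0.05. Levels of different genes are not compared, since probe sets differ in brightness. Medians of the 6 arrays ran from 221 to 236, the median standard error of a difference was 0.26, and a typical 95% interval reached 0.55 to either side. The labelled tissue was checked on 13 hepatocyte markers. Their summed signal was 344147 to 402094 in obese livers and 362782 to 366064 in lean livers, and none of the 13 passed the test. Their median difference was -0.11. Albumin (Alb) gave 97838, 106169 and 81874 in obese livers, against 83553, 89105 and 84033 in lean livers. The RNA was that of the whole tissue, so fewer cells of a type and less RNA per cell cannot be told apart.

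Of the 9519 probe sets tested, 64 (0.672%) passed, 36 higher (0.378%) and 28 lower (0.294%) in obese livers. They stand for 57 named genes and 4 probe sets without 1 gene symbol, and 19 of the 64 differed by at least 2 on the log2 scale. In all 64 the 3 obese arrays lay on one side of the 3 lean arrays, which 13.7% of all tested probe sets did, 6.56% with obese livers higher and 7.19% with obese livers lower. The largest rises were those of the steroid sulfotransferase Sult2a2, the fatty acid desaturase Scd, the glycolytic enzyme Pklr and the phosphatase Ptprs, and the largest falls among named genes those of the carbonic anhydrase Car3, the sulfotransferases Sult1c2a and Sult1c3, the cytochrome Cyp3a2 and the cadherin Cdh17. The median difference of all tested probe sets was -0.01. Leaving out lean replicate 1 or lean replicate 2 lowered the 28 falls to 18 in each case. Of the 12 ligand-treated liver arrays that share in the estimate of the spread, AG035029 replicate 1 stood apart on the second principal component (9.04% of the variance), and without it 70 probe sets passed. Of the 64 calls, 32 held without any single array of the 6. For the others, the arrays whose absence ended the call are named below, with the highest adjusted p among those fits.

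The promoters of Pklr and Ptprs, a pair of genes among the 4 largest rises, are shown here because each holds letters that transcription factors of sugar metabolism or of the E-box family are known to read. Both are 200 bases up to the base before the RefSeq gene start in assembly GRCr8, 5′ to 3′ on the strand of the gene, at chr2:176841064-176841263 (plus strand) for Pklr and chr9:1394092-1394291 (minus strand) for Ptprs. Capitals mark the match to the carbohydrate response element in Pklr (CACGGG and CCCGTG, 5 bases apart), which begins 168 bases before the start, and the matches to the E-box CACGTG in Ptprs, which begin 194, 178 and 143 bases before it.
Pklr: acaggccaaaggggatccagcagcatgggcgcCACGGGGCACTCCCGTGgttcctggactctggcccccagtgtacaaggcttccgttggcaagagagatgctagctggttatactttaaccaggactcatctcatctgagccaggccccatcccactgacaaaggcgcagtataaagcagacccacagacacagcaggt
Ptprs: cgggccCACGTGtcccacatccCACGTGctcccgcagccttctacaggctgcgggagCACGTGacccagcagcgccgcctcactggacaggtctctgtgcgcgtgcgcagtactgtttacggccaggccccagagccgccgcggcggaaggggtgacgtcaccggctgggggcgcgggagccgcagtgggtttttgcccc

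Both strands of the 250 bases before the start were searched in 26 of the 32 genes that rose and 21 of the 25 that fell, those with a promoter in the table. The carbohydrate response element was in 1 of the 26 (3.85%), Pklr, which was the 1 match among all 27457 promoters of the table (0.00364%). This motif was not among those planned and was added with the values of Pklr known. Because Pklr alone matches these letters, the shares are no measure of enrichment. The E-box was in 2 of 26 promoters of genes that rose (7.69%, Pepd and Ptprs), in 0 of 21 that fell, and in 7.91% of 8610 promoters of genes with a probe set on the array. The SREBP site TCACNCCAC was in 0 of 26 and 1 of 21 (Galnt1), against 1.02% of the 8610. The direct repeat of AGGTCA with 1 base between the copies, a form that PPAR dimers read, was in none of the 26 or the 21 and in 0.0116% of the 8610. A match is letters only; no binding was measured.

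Transcripts of several enzymes that turn sugar into fatty acids were higher in obese livers. Of 25 listed genes of fatty acid synthesis, 23 had a probe set and 21 passed the signal filter. Of these 21, 6 rose (Scd, Fasn, Elovl6, Me1, Pklr and Acaca), 0 fell and 15 did not pass, on the brightest probe set of each gene. Over all 7079 genes tested, 0.438% rose and 0.325% fell, and every list count below is to be read beside these shares. The obese arrays lay above all lean arrays in 15 of the 21 and below them in 0, against 6.85% and 6.91% of all genes. The median difference of the 21 was 0.79, against -0.0007 over all genes. The list was drawn up with earlier results of these arrays known, so its count describes the group and is not independent evidence of its direction. The 6 rises became 2 without lean replicate 2 and 3 without obese replicate 3.

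Scd, which places the double bond in oleate and palmitoleate, gave signals of 23566, 21367 and 35786 in obese livers, against 1374, 4303 and 2632 in lean livers. The lowest obese signal was far above the highest lean one. The rise was 3.38 ± 0.50 in log2 (95% interval 2.35 to 4.42, adjusted p = 0.000729), a ratio of mean signals of 9.71. Elovl6, which lengthens palmitate to stearate, gave 706, 795 and 733 in obese livers, against 231, 142 and 215 in lean livers, a rise of 1.85 ± 0.32 (adjusted p = 0.00409) with little spread among the obese arrays. Fasn, the fatty acid synthase that makes palmitate, gave 2293, 2838 and 9096 in obese livers, against 949.6, 482 and 1141 in lean livers. On the third obese array the signal was more than on the other obese arrays together, and the rise of 2.25 ± 0.41 (adjusted p = 0.00619) was lost without lean replicate 2 (adjusted p up to 0.0646). A second Fasn probe set differed by 1.33 ± 0.41 and did not pass (adjusted p = 0.178).

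Acetyl-CoA carboxylase 1 (Acaca), which makes the malonyl-CoA that Fasn uses, gave 1439.5, 2153 and 3550.2 in obese livers, against 952, 712 and 957 in lean livers. Again the third obese array was highest, and the groups did not overlap. The rise of 1.34 ± 0.29 (adjusted p = 0.0314) was lost without any one of obese replicates 2 and 3 and lean replicates 1, 2 and 3 (adjusted p up to 0.17), and a second probe set did not pass (log2 difference 0.96 ± 0.35, adjusted p = 0.301). The malic enzyme Me1, a source of NADPH for the pathway, gave 2114, 1433 and 1853 in obese livers, against 685, 444 and 632 in lean livers. It rose by 1.59 ± 0.32 (adjusted p = 0.0166), lost without any one of obese replicates 1 and 3 and lean replicate 2 (adjusted p up to 0.119), and a second probe set differed by 0.42 ± 0.32 (adjusted p = 0.744). Pklr encodes the liver pyruvate kinase, the last step of glycolysis, and both of its probe sets rose. The probe set 1387263_at gave 1288, 778 and 997 in obese livers, against 81.9, 94.5 and 71.7 in lean livers and rose by 3.32 ± 0.48 (adjusted p = 0.000711), with all lean signals under 100. The brighter probe set 1368651_at gave 3132, 2187 and 3392 in obese livers, against 812, 1195 and 1240.4 in lean livers. It rose by 1.41 ± 0.31 (adjusted p = 0.0327), lost without any one of obese replicates 1 and 3 and lean replicates 1, 2 and 3 (adjusted p up to 0.154).

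Both regulators named above stayed short of the threshold. Srebf1 gave 2032, 1175 and 3758 in obese livers, against 888, 813 and 1358 in lean livers, where the second obese array lay below the third lean array (log2 difference 1.05 ± 0.36, adjusted p = 0.252). Mlxipl gave 295, 166 and 453 in obese livers, against 322, 363 and 488 in lean livers, with overlapping groups (log2 difference -0.42 ± 0.31, adjusted p = 0.728). Acly, which makes cytosolic acetyl-CoA from citrate, gave 3469, 3067 and 4203 in obese livers, against 1772, 1630.4 and 2490.4 in lean livers without overlap (log2 difference 0.87 ± 0.25, adjusted p = 0.142), and Thrsp, a lipogenic protein, 19797, 19686 and 12751 in obese livers, against 7246, 12205 and 9697 in lean livers, also without overlap (log2 difference 0.84 ± 0.33, adjusted p = 0.356). The pentose phosphate enzyme Pgd gave 1708, 1186 and 2071 in obese livers, against 641, 559 and 717 in lean livers (log2 difference 1.32 ± 0.33, adjusted p = 0.0752). The desaturase Fads2 differed by 0.65 ± 0.18 (adjusted p = 0.118), while Fads1 and Scd2 differed by -0.11 ± 0.26 and -0.19 ± 0.43, with overlapping groups.

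**Figure D1:**
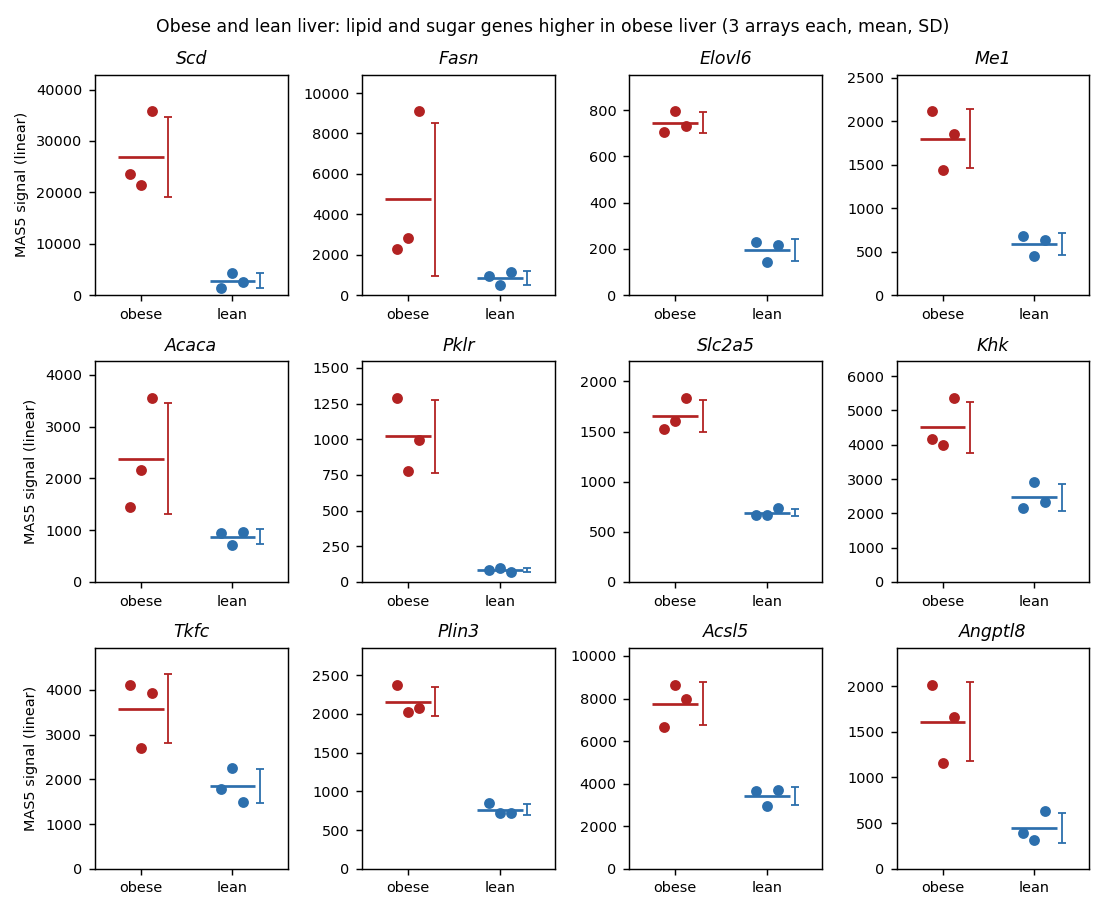
MAS5 signal (linear scale, y axis from 0) of 12 lipid and sugar genes in obese (red, left) and lean (blue, right) livers; points are the 3 arrays of each group, horizontal bars their mean and brackets the SD. The obese arrays lie above all lean arrays in every panel; for Fasn the third obese array reached 9096, far above the 2293 and 2838 of the other obese arrays.

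The genes that rose also included Slc2a5, Khk and Tkfc, which were set side by side after their values were seen. Slc2a5, the fructose transporter GLUT5, gave 1528, 1602 and 1834 in obese livers, against 671, 668 and 735 in lean livers. Every obese signal was above every lean one by a wide margin, a rise of 1.23 ± 0.18 (adjusted p = 0.000695). Khk, ketohexokinase, phosphorylates fructose and gave 4163, 3995 and 5358 in obese livers, against 2161, 2907 and 2329 in lean livers, a rise of 0.86 ± 0.19 (adjusted p = 0.0311). Tkfc, triokinase, acts on the glyceraldehyde that follows and gave 4108, 2698 and 3929 in obese livers, against 1793, 2252 and 1502 in lean livers, a rise of 0.94 ± 0.21 (adjusted p = 0.0341). The Khk call was lost without any one of obese replicates 1 and 3 and lean replicates 1 and 3 (adjusted p up to 0.153) and the Tkfc call without any one of obese replicates 1 and 3 and lean replicates 1 and 3 (adjusted p up to 0.146). Khk and Tkfc were the 2 that rose of 24 tested genes of glucose production, glycolysis and glycogen, of which 0 fell. In that list of 24 genes, 10 had all obese arrays above all lean arrays and 1 had them below, against 6.85% and 6.91% of all genes. The median was 0.25. The gluconeogenic enzyme Pck1 gave 18569, 20640.5 and 17317 in obese livers, against 19254, 17324 and 20545 in lean livers, with a difference of -0.02 ± 0.13 (adjusted p = 0.986). Glucose phosphate isomerase (Gpi) and pyruvate dehydrogenase kinase 1 (Pdk1) came nearest below the threshold among the rest, with log2 difference 0.85 ± 0.20, adjusted p = 0.0508 for Gpi and log2 difference 1.0 ± 0.24, adjusted p = 0.0629 for Pdk1.

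Genes of lipid storage and of fatty acid activation rose in part. Of 14 tested genes of triglyceride synthesis, lipid droplets and secretion, 2 rose, 0 fell, and the median was 0.43. Of all genes tested, 0.438% rose and 0.325% fell. The obese arrays lay above all lean arrays in 6 of the 14 and below them in 0, against 6.85% and 6.91% of all genes. Plin3, a protein of the lipid droplet surface, gave 2374, 2025 and 2083 in obese livers, against 848, 726 and 716 in lean livers, which left a wide gap between the groups (rise 1.48 ± 0.19, adjusted p = 0.000259). G0s2, an inhibitor of the droplet lipase encoded by Pnpla2, gave 6647, 10619.9 and 5344 in obese livers, against 4209.6, 2736 and 2318 in lean livers. Its rise of 1.27 ± 0.28 (adjusted p = 0.0334) was lost without any one of obese replicates 1 and 2 and lean replicates 2 and 3 (adjusted p up to 0.142). Dgat2, which makes triglyceride, gave 6124, 4918 and 5600.2 in obese livers, against 3749, 3542 and 2933 in lean livers without overlap but did not pass (log2 difference 0.70 ± 0.17, adjusted p = 0.0657). Plin2, the most studied droplet protein of fatty liver, gave 5001, 7975 and 7337 in obese livers, against 5072, 2458 and 3519 in lean livers, where the first obese array lay below the first lean array (log2 difference 0.91 ± 0.51, adjusted p = 0.604). Cidea, a droplet-fusing protein, differed by -0.15 ± 0.27 (adjusted p = 0.926).

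Among 15 genes of fatty acid uptake, binding and activation, 1 rose and 1 fell (median 0.21), against 0.438% and 0.325% of all genes. Acsl5, a long-chain acyl-CoA synthetase, gave 6677, 8635 and 7984 in obese livers, against 3656, 2945 and 3713 in lean livers and rose by 1.17 ± 0.17 (adjusted p = 0.000613). Fabp7, a fatty acid-binding protein best known from brain, gave 1223, 772 and 850.1 in obese livers, against 4392, 7828 and 3465 in lean livers and fell by 2.38 ± 0.32 (adjusted p = 0.000383). Fabp1, the main fatty acid-binding protein of hepatocytes, gave 53739, 54657 and 41576 in obese livers, against 51938, 59120.2 and 44048 in lean livers and differed by -0.05 ± 0.15. Fabp5 gave 1936, 1834 and 2658 in obese livers, against 748, 702 and 760.2 in lean livers, without overlap but with an adjusted p of 0.159. The uptake protein Cd36 gave 1290.2, 1952 and 492 in obese livers, against 786, 645 and 863 in lean livers, with overlapping groups (log2 difference 0.50 ± 0.42, adjusted p = 0.788).

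Of 11 apolipoproteins tested, 1 rose and 0 fell (median 0.07), against 0.438% and 0.325% of all genes. Apoa4, carried on triglyceride-rich particles, gave 13955, 16876 and 16829 in obese livers, against 7173, 5504 and 5867 in lean livers, a rise of 1.36 ± 0.20 (adjusted p = 0.000756), while Apob differed by -0.21 ± 0.17. Angptl8, a secreted inhibitor of lipoprotein lipase that feeding and insulin raise, gave 2012, 1158 and 1666 in obese livers, against 389.8, 320.1 and 635 in lean livers. It rose by 1.82 ± 0.36 (adjusted p = 0.0127), lost without any one of obese replicates 1 and 3 and lean replicates 1 and 2 (adjusted p up to 0.0987).

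Genes of cholesterol synthesis gave falls and no rise. Of 20 tested genes of cholesterol synthesis and uptake, 0 rose and 2 fell, the isomerase Idi1 and the squalene epoxidase Sqle. The median was -0.22. Of the 20 genes, 4 had all obese arrays below all lean arrays and 1 had them above, against 6.91% and 6.85% of all genes. Idi1 gave 242, 194 and 323 in obese livers, against 1103, 1261 and 1117 in lean livers, with a wide gap between the groups. It fell by 2.14 ± 0.34 (adjusted p = 0.00174), and a second probe set differed by -2.20 ± 0.52 without passing (adjusted p = 0.059). Sqle was dimmer, with 95, 12.1 and 43.2 in obese livers, against 269.8, 386 and 429 in lean livers. All its obese signals were under 100, where the added 20 shrinks a difference. The fall (log2 difference -2.61 ± 0.59, adjusted p = 0.0377) was lost without any one of obese replicates 2 and 3 and lean replicates 1, 2 and 3 (adjusted p up to 0.151). Cyp51 and Msmo1, which demethylate lanosterol and its products, lay below without overlap and short of the threshold: 2136, 1538 and 1705 in obese livers, against 3864, 4469 and 3055 in lean livers for Cyp51 (log2 difference -1.07 ± 0.25, adjusted p = 0.0564), and 867, 1079 and 762 in obese livers, against 3486, 1796 and 2542 in lean livers for Msmo1 (log2 difference -1.47 ± 0.37, adjusted p = 0.0752). The regulators Srebf2 and Insig1 differed by -0.12 ± 0.25 and 0.06 ± 0.38.

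Abcg5, one partner of the pump that exports sterols into bile, was the 1 member that fell among 22 genes of bile acid and sterol transport. In that list 0 rose, and the median was -0.28. The shares over all genes were 0.325% for falls and 0.438% for rises. Abcg5 gave 164, 201 and 105 in obese livers, against 589, 620.1 and 554 in lean livers. The fall (log2 difference -1.82 ± 0.40, adjusted p = 0.0343) was lost without any one of obese replicates 1 and 3 and lean replicates 1, 2 and 3 (adjusted p up to 0.165). Cyp7a1, the rate-limiting enzyme of bile acid synthesis, gave 1969.9, 952 and 1510.3 in obese livers, against 1557, 2404 and 1827 in lean livers, with overlapping groups (log2 difference -0.42 ± 0.61, adjusted p = 0.902). Cyp27a1, of the other entry into bile acids, differed the other way, by 0.57 ± 0.14 (adjusted p = 0.0652).

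**Figure D2:**
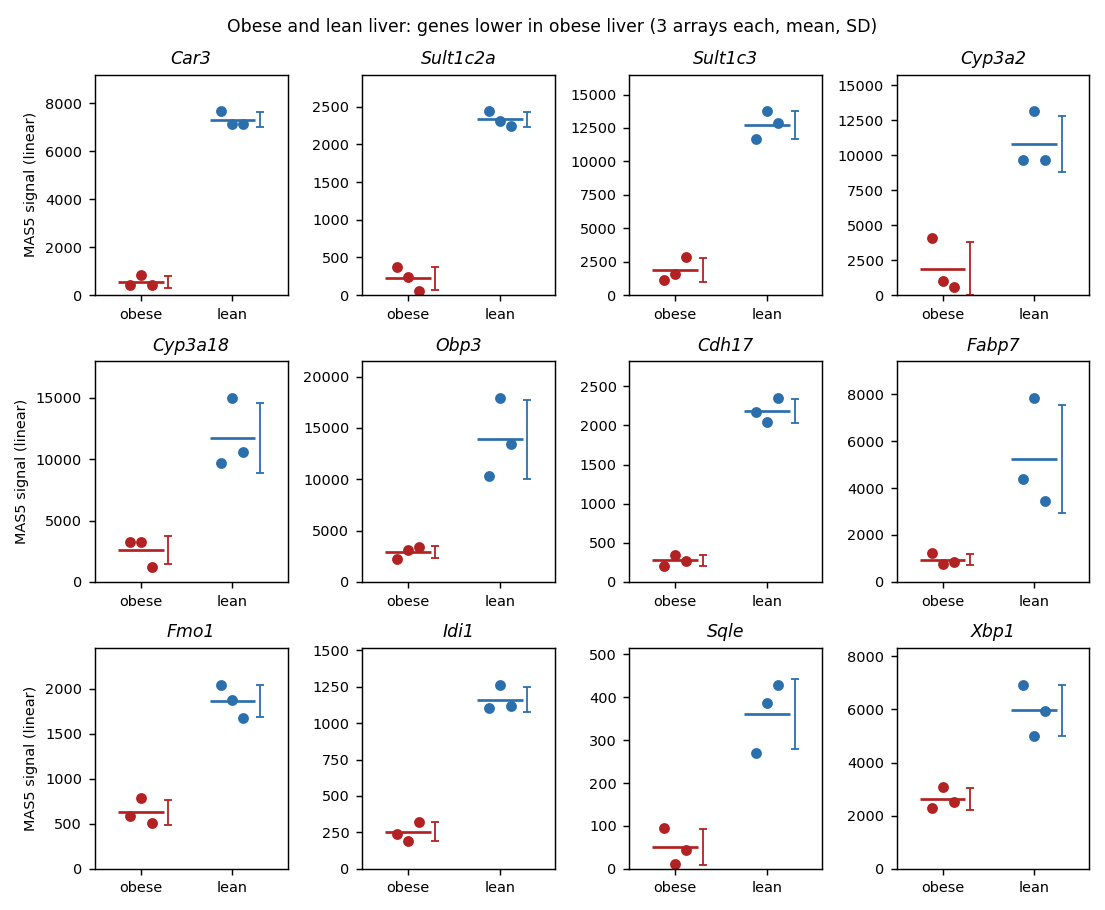
MAS5 signal (linear scale, y axis from 0) of 12 genes that fell in obese livers, with obese arrays in red on the left and lean arrays in blue on the right; points are the 3 arrays of each group, horizontal bars their mean and brackets the SD, cut at 0. The lean arrays lie above all obese arrays in every panel, and Sqle has the lowest signals, 12.1 to 95 in obese livers.

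Male-biased genes of rat liver were lower in obese livers. Of 11 tested genes of that list, 5 fell (Cyp3a2, Cyp3a18, Sult1c3, Car3 and Obp3) and 0 rose. All 11 differences were below 0, the obese arrays lay below all lean arrays in 8, and the median was -0.75. Over all 7079 genes, 0.325% fell and 6.91% had the obese arrays below all lean arrays. Of 8 tested female-biased genes, 2 rose (Sult2a6 and Prlr) and 0 fell, with a median of 0.86; over all genes 0.438% rose. The lists were drawn up with earlier results of these arrays known, so neither count is independent evidence of its direction. All rats were male.

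Car3, carbonic anhydrase 3, had the largest fall among named genes. Its probe set 1386977_at gave 412, 833 and 408 in obese livers, against 7661, 7135 and 7117 in lean livers, a log2 difference of -3.76 ± 0.42 (adjusted p = 8.51e-05) and a ratio of mean signals of 13.3 in favour of lean livers. The brighter 1367896_at gave 3049.8, 5485 and 3887 in obese livers, against 23532, 27229 and 26769.6 in lean livers and fell by 2.67 ± 0.36 (adjusted p = 0.00033). Both probe sets thus separated the groups by a wide margin. Cyp3a2, a steroid hydroxylase that adult males express, gave 4066, 1015 and 559 in obese livers, against 9645, 13153 and 9673 in lean livers. The obese arrays ranged widely among themselves, yet even the highest was under the lowest lean one (log2 difference -2.99 ± 0.53, adjusted p = 0.00491). Cyp3a18 gave 3232, 3276 and 1252 in obese livers, against 9651, 14973 and 10609 in lean livers and fell by 2.27 ± 0.29 (adjusted p = 0.000259).

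Sult1c3, a phenol sulfotransferase, gave 1154, 1569 and 2857 in obese livers, against 11658, 13745 and 12853 in lean livers and fell by 2.86 ± 0.37 (adjusted p = 0.000259). Its relative Sult1c2a gave 366, 236 and 56.3 in obese livers, against 2438, 2311 and 2241 in lean livers, a log2 difference of -3.58 ± 0.53 (adjusted p = 0.000756). The Sult1c, Cyp3a and Sult2a families have close copies in the rat, and cross-hybridization between members was not tested. Obp3 belongs to the alpha-2u globulins, small carrier proteins that male rats secrete into urine. It gave 2241, 3064 and 3440.5 in obese livers, against 10286, 17898 and 13452 in lean livers on 1387985_a_at, a log2 difference of -2.23 ± 0.49 (adjusted p = 0.0341), lost without any one of obese replicates 1, 2 and 3 and lean replicates 1, 2 and 3 (adjusted p up to 0.17). On 1370479_x_at it gave 2035, 2530.0 and 1756 in obese livers, against 6089, 12166 and 9612 in lean livers and fell by 2.09 ± 0.35 (adjusted p = 0.00301). Rup2 is a separate gene, on chromosome 8 where Obp3 is on chromosome 5. It fell on 1 of 4 probe sets, with 3950.0, 2756 and 2884 in obese livers, against 10689, 11291 and 7587 in lean livers (log2 difference -1.62 ± 0.23, adjusted p = 0.000474). Its other probe sets differed by 0.02 ± 0.16, -0.01 ± 0.17 and -0.31 ± 0.23. The _x_at and _a_at probe sets of either gene can read several similar transcripts, so which transcript moved is uncertain.

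The best known male-specific enzyme of rat liver, Cyp2c11, did not pass. It gave 16798, 24343 and 14383 in obese livers, against 27183, 29806 and 25514 in lean livers, without overlap (log2 difference -0.60 ± 0.39, adjusted p = 0.675). Mup5 and Hsd3b5 also lay below without overlap (-0.66 ± 0.19 and -0.75 ± 0.31, adjusted p = 0.134 and 0.413), while Cyp2a2 and Cyp2c13 overlapped.

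On the female-biased side, Sult2a6, a hydroxysteroid sulfotransferase, gave 8497, 8941 and 4858 in obese livers, against 2305, 2678 and 1047 in lean livers, a rise of 1.93 ± 0.32 (adjusted p = 0.00274). Sult2a2, of the same family but outside the list, had the largest rise of all. It gave 2086, 3582 and 1407 in obese livers, against 168, 106 and 116 in lean livers, a ratio of mean signals of 18.1 and a rise of 3.91 ± 0.37 (95% interval 3.13 to 4.68, adjusted p = 1.12e-05). Prlr, the prolactin receptor, gave 1182, 1291 and 976 in obese livers, against 772, 563 and 574 in lean livers and rose by 0.84 ± 0.17 (adjusted p = 0.0203), lost without any one of obese replicates 1 and 2 and lean replicates 2 and 3 (adjusted p up to 0.113). Its other 2 probe sets differed by 0.68 ± 0.31 and 0.54 ± 0.26 and did not pass. The female-specific Cyp2c12 gave 1660.5, 1329 and 1271 in obese livers, against 503, 2134 and 394 in lean livers, where 1 lean array was the highest of the 6 (log2 difference 0.88 ± 0.59, adjusted p = 0.695).

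Of 13 tested genes of the growth hormone and IGF axis, Prlr was the 1 that rose and 0 fell (median -0.14), against 0.438% and 0.325% of all genes. The growth hormone receptor Ghr differed by 0.29 ± 0.17. Igf1, the hormone that liver releases in answer to growth hormone, gave 15999, 16261 and 14859.7 in obese livers, against 18417, 21908 and 20263 in lean livers, below without overlap (log2 difference -0.36 ± 0.19, adjusted p = 0.565). Its carrier Igfbp3 gave 530.3, 686 and 399.6 in obese livers, against 1242, 804 and 847 in lean livers (log2 difference -0.82 ± 0.32, adjusted p = 0.353), and the signal transducer Stat5a 235, 340.2 and 292 in obese livers, against 492, 546 and 508 in lean livers (log2 difference -0.81 ± 0.33, adjusted p = 0.405). None of these 3 passed. Igfbp1, which insulin lowers, gave 1159, 2049 and 1096 in obese livers, against 4573, 1312 and 3505 in lean livers, with overlapping groups (log2 difference -1.0 ± 0.42, adjusted p = 0.42), and Igfbp2 differed by 0.42 ± 0.37.

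Drug-metabolizing enzymes moved singly and in both directions. Of 42 tested P450 and other phase I enzymes, 1 rose (Aldh1a1) and 3 fell (Cyp3a2, Cyp3a18 and Fmo1), with a median of 0.03. The shares over all genes were 0.438% for rises and 0.325% for falls. Fmo1, a flavin monooxygenase of drugs and amines, gave 589, 781 and 512 in obese livers, against 2039, 1868 and 1678 in lean livers, with clearly separate groups (log2 difference -1.56 ± 0.18, adjusted p = 0.000148). Aldh1a1, which makes retinoic acid from retinal, gave 3138, 3069.7 and 2165 in obese livers, against 975, 996 and 1178 in lean livers. Its rise of 1.38 ± 0.26 (adjusted p = 0.00836) was lost without any one of obese replicate 1 and lean replicate 1 (adjusted p up to 0.0554). Of 44 conjugation and antioxidant enzymes, 0 rose and 1 fell, Sult1c3, against the same shares of all genes, and the median was 0.04. Outside these lists Nat8, an acetyltransferase that finishes mercapturic acids, gave 340.3, 791 and 272 in obese livers, against 2496, 2448 and 983 in lean livers and fell by 2.06 ± 0.36 (adjusted p = 0.00423), although the third lean array was close to the second obese array.

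In the endoplasmic reticulum list, Xbp1 was the 1 gene that fell of 25 tested, and 0 rose. The obese arrays lay below all lean arrays in 8 of the 25 and above them in 2, against 6.91% and 6.85% of all genes. The median was -0.31. Xbp1, a transcription factor of the unfolded protein response, gave 2273, 3084 and 2517 in obese livers, against 6922, 5005 and 5959 in lean livers and fell by 1.18 ± 0.16 (adjusted p = 0.000428). The chaperone Hspa5 (BiP) gave 5600.0, 5402 and 5144 in obese livers, against 8904, 8650.2 and 7971 in lean livers, a narrow and separate spread on both sides (log2 difference -0.66 ± 0.16, adjusted p = 0.0605). The co-chaperone Dnajb9, a known target of Xbp1, differed by -0.87 ± 0.21 (adjusted p = 0.059) and Sdf2l1 by -0.73 ± 0.19 (adjusted p = 0.0886), both without overlap. None of these 3 passed. The array reads total Xbp1 RNA, and its spliced form was not measured here.

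No gene passed limma's test in either direction among 25 of mitochondrial fatty acid oxidation and ketogenesis (median difference 0.08), 22 of peroxisomal and microsomal oxidation (median 0.24), 58 of the citrate cycle and oxidative phosphorylation (median 0.17) and 19 of branched-chain amino acid breakdown (median 0.05). Unadjusted limma p-values under 0.05 were found for 1, 1, 7 and 2 genes of these 4 lists, in the same order. Of all 7079 genes tested, 698 had such a p. Cpt1a, which admits fatty acids into mitochondria, gave 9109.9, 15086 and 5423 in obese livers, against 12429, 8712 and 8229 in lean livers, a difference of -0.09 ± 0.28. Pdk4, a fasting-induced brake on glucose oxidation, gave 184, 642 and 257 in obese livers, against 909, 317 and 559 in lean livers (log2 difference -0.76 ± 0.51, adjusted p = 0.692), and the hormone Fgf21 318, 459 and 239.5 in obese livers, against 451, 267 and 264 in lean livers (log2 difference 0.04 ± 0.67, adjusted p = 0.995). All 3 overlapped between groups. Cyp4a1, a microsomal enzyme and textbook target of PPARα, gave 7572, 10386 and 9358 in obese livers, against 7466, 3574 and 3772 in lean livers without overlap but did not pass (log2 difference 0.95 ± 0.25, adjusted p = 0.0966). In the list of the citrate cycle and oxidative phosphorylation the obese arrays lay above all lean arrays for 11 of 58 genes and below for 0. Over all genes these shares were 6.85% and 6.91%.

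Of 39 genes of amino acid breakdown and the urea cycle, 1 rose and 0 fell, with a median of 0.20. The obese arrays lay above all lean arrays for 11 of the 39 and below for 2, against 6.85% and 6.91% of all genes. Prodh2, which oxidizes hydroxyproline, gave 5156, 3793 and 4491 in obese livers, against 2739, 2022 and 1752 in lean livers. It rose by 1.05 ± 0.21 (adjusted p = 0.0161), lost without any one of obese replicates 1 and 3 and lean replicates 2 and 3 (adjusted p up to 0.092). Alanine transaminase 1 (Gpt) gave 1623, 2612 and 2359 in obese livers, against 1129.6, 979 and 1137 in lean livers (log2 difference 0.98 ± 0.24, adjusted p = 0.0707), and betaine-homocysteine methyltransferase (Bhmt) 17720.2, 15464 and 19887 in obese livers, against 6994, 7935 and 9926 in lean livers (log2 difference 1.10 ± 0.30, adjusted p = 0.115), both without overlap and short of the threshold.

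No gene passed among 19 of insulin signalling (median 0.08, 3 with an unadjusted limma p under 0.05). Irs2, the insulin receptor substrate that insulin represses through SREBP-1c, gave 153, 122 and 23.1 in obese livers, against 345, 236 and 188 in lean livers, below without overlap (log2 difference -1.40 ± 0.42, adjusted p = 0.162). The insulin receptor Insr gave 145, 322 and 171 in obese livers, against 118, 210.1 and 222 in lean livers, with overlap (log2 difference 0.16 ± 0.40, adjusted p = 0.947). Irs1 and the fatty acid sensor Ppara were below the signal filter and not tested. Among 24 nuclear receptors and liver transcription factors 0 passed (median -0.11, 4 with an unadjusted limma p under 0.05). For both lists the share over all genes is 698 of 7079 with such a p. Pparg, the receptor of the ligands used elsewhere in the study, gave 524, 274 and 350.3 in obese livers, against 229, 342 and 307 in lean livers, overlapping between groups (log2 difference 0.34 ± 0.31, adjusted p = 0.815). Onecut1 (HNF6), a liver factor that growth hormone is known to raise, gave 188, 386 and 402 in obese livers, against 2910.1, 1081 and 1019 in lean livers, the widest difference in that list (log2 difference -2.18 ± 0.54, adjusted p = 0.0694).

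Per1, a clock component that glucocorticoids also induce, was the 1 gene called in 12 of the circadian clock (median 0.23) and in 21 glucocorticoid-responsive genes (median -0.13). It gave 74.1, 71.7 and 165 in obese livers, against 208, 383 and 392 in lean livers and fell by 1.52 ± 0.35 (adjusted p = 0.0435). The call was lost without any one of obese replicates 1 and 2 and lean replicates 2 and 3 (adjusted p up to 0.19). Per2 differed the other way, by 0.97 ± 0.28 (adjusted p = 0.134), and Dbp and Bmal1 differed by 0.29 ± 0.54 and 0.21 ± 0.46 with overlapping groups. The labels used here give no time of day for the collection.

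Genes of inflammation and of cells other than hepatocytes gave 0 calls. This holds for 25 acute phase and inflammation genes (median difference -0.22), 31 of the interferon response and antigen presentation (median -0.14), 15 immediate early genes (median -0.07) and 13 of the cell cycle (median -0.06). Unadjusted limma p-values under 0.05 were found for 5, 4, 1 and 0 genes of these 4 lists, in the same order. It also holds for 18 macrophage and Kupffer cell markers (median -0.22), 5 of lymphocytes and granulocytes (median -0.22), 23 of stellate cells and matrix (median -0.12), 11 endothelial (median -0.18) and 5 of bile duct cells (median 0.07), with 3, 0, 2, 1 and 0 unadjusted limma p-values under 0.05. Beside all these counts, 698 of all 7079 genes tested had an unadjusted p under 0.05. The 18 macrophage differences were all below 0. Over 20 measured macrophage markers the summed signal was 15831 to 19932 in obese livers and 19247 to 22867 in lean livers, with a small overlap. Summed signals were 1954 to 2714 in obese livers and 2667 to 3009.6 in lean livers over 20 lymphocyte and granulocyte markers, and 15511 to 23000.5 in obese livers and 18806 to 25053 in lean livers over 29 stellate cell and matrix markers. Endothelial markers summed to 5027 to 6539 in obese livers and 5350.1 to 7134 in lean livers over 15 genes, and bile duct markers to 6853 to 10103 in obese livers and 8435 to 9536 in lean livers over 9 genes. The part of these cells in the other differences was not tested. Of the acute phase genes, Cxcl1 gave 140.5, 159 and 57.6 in obese livers, against 1606, 209 and 506 in lean livers, with 1 high lean array (log2 difference -2.15 ± 1.0, adjusted p = 0.496), and Orm1 differed by 0.53 ± 0.20 (adjusted p = 0.332).

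Markers of other tissues did not pass. Adipocyte markers summed to 581 to 1097 in obese livers and 982 to 1204 in lean livers over 8 genes, with leptin (Lep) and Fabp4 under 100 on all 6 arrays, and 0 of 3 tested passed (median -0.60). Exocrine pancreas markers summed to 1242 to 1502 in obese livers and 1409.5 to 1986 in lean livers over 12 genes, with 0 of 2 passing (median -0.62). Red cell markers summed to 11923 to 20770.1 in obese livers and 9941 to 15866 in lean livers over 3 genes, with 0 of 2 passing (median 0.42). Skeletal muscle markers summed to 11440.5 to 12317 in obese livers and 9017 to 19504.5 in lean livers over 14 genes, with 0 of 3 passing (median -0.03). Unadjusted limma p-values under 0.05 were found for 0 adipocyte, 1 pancreas, 0 red cell and 0 muscle markers, against 698 of all 7079 genes tested. No marker of these lists was at 0 on all 6 arrays.

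**Figure D3:**
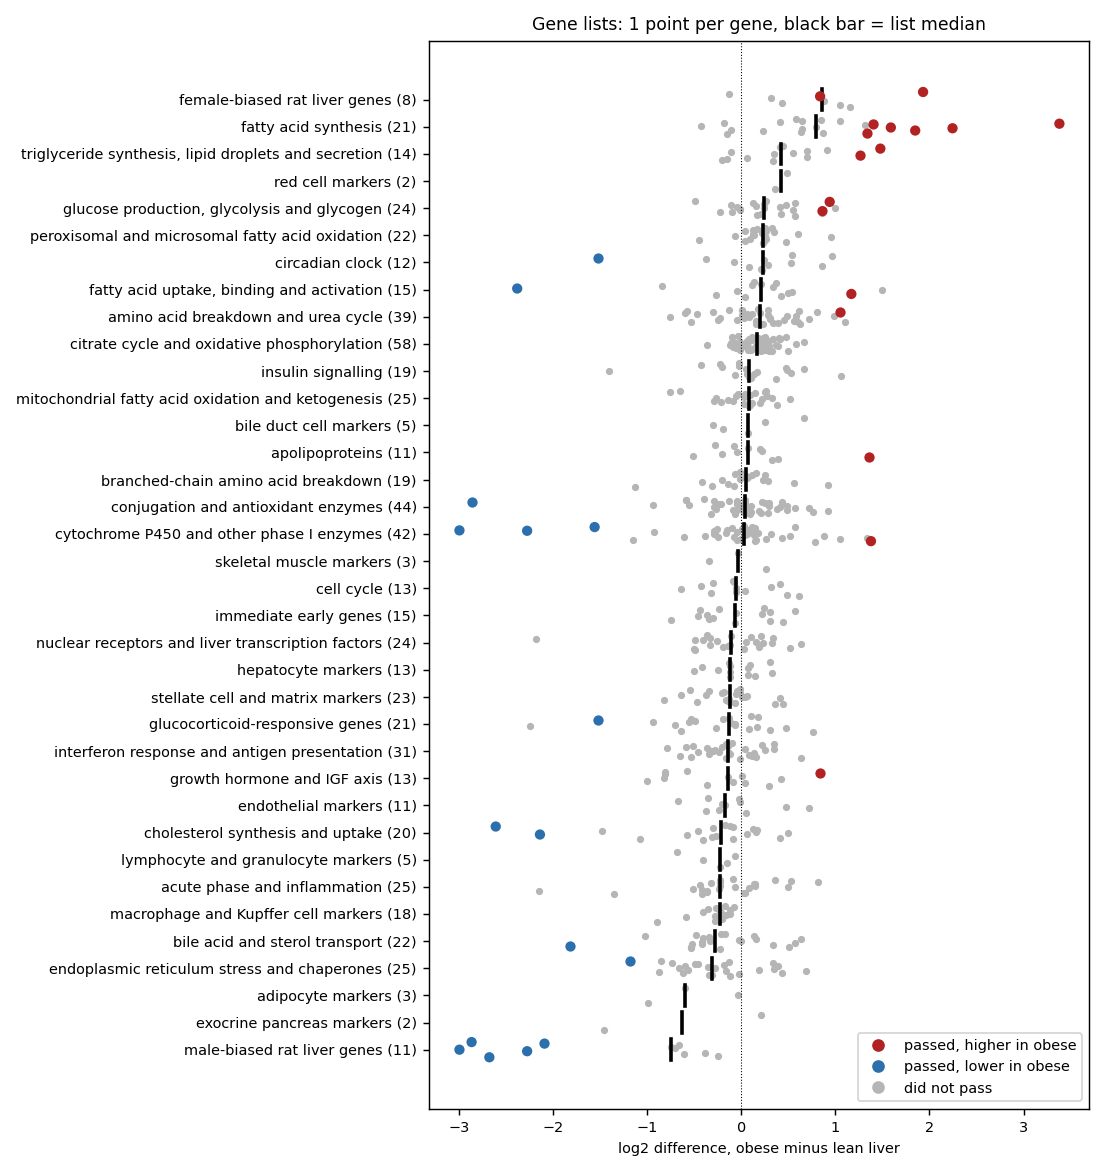
Log2 difference, obese minus lean liver (x axis), for every tested gene of 36 lists (1 point per gene on its brightest probe set, lists ordered by median, number of genes in parentheses); red points rose, blue points fell, grey points did not pass, and black bars are list medians. The 6 red points of fatty acid synthesis (median 0.79) lie right of 0 and the 5 blue points of male-biased genes (median -0.75) left of it.

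The other genes that rose cover several functions. Ptprs, a receptor-type tyrosine phosphatase, gave 455, 490.3 and 1084 in obese livers, against 118, 50.8 and 69 in lean livers on 1387901_at and rose by 2.76 ± 0.37 (adjusted p = 0.00033). A second Ptprs probe set, 1369094_a_at, gave 993, 1082 and 1133 in obese livers, against 962, 1071 and 1046 in lean livers. It differed by 0.06 ± 0.51, a standard error that the ligand-treated livers (226 to 3064) share in. A further 2 Ptprs probe sets were below the filter, so the gene's probe sets disagree. Pced1b gave 142, 503 and 336 in obese livers, against 81.3, 69.3 and 72.1 in lean livers, a rise of 1.73 ± 0.36 (adjusted p = 0.0229), lost without any one of obese replicates 2 and 3 and lean replicates 1, 2 and 3 (adjusted p up to 0.124). Dglucy, D-glutamate cyclase, gave 650.3, 704 and 526 in obese livers, against 137, 336 and 229 in lean livers (log2 difference 1.42 ± 0.25, adjusted p = 0.00532), and Ethe1, a mitochondrial enzyme of sulfide disposal, 3481, 3337 and 3473 in obese livers, against 1152, 1409.7 and 1341 in lean livers (log2 difference 1.39 ± 0.22, adjusted p = 0.00136). Ethe1 varied little within either group. The remaining rises of named genes were 0.76 to 1.21 in log2. Perp, a membrane protein induced by p53, rose by 1.05 ± 0.16, Pepd, a prolidase, by 1.02 ± 0.18, and Gda, guanine deaminase, by 0.96 ± 0.17 on 1 of 2 probe sets (adjusted p = 0.00136, 0.00423 and 0.00598). Fitted on only the 6 arrays compared, limma gave adjusted p = 0.059 for Dglucy and 0.0576 for Gda, which ends both calls.

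For the next rises the call, though not the sign, depended on which arrays were kept. Aldh1l1, an enzyme of the folate cycle, rose by 1.04 ± 0.23, lost without any one of obese replicates 1, 2 and 3 and lean replicates 1 and 2 (adjusted p up to 0.211). Reep6, a protein of the endoplasmic reticulum, rose by 1.0 ± 0.18, lost without lean replicate 2 (adjusted p up to 0.0605). Creg1, a secreted glycoprotein, rose by 0.97 ± 0.22, lost without any one of obese replicates 1, 2 and 3 and lean replicates 1, 2 and 3 (adjusted p up to 0.207). Mtmr7, of the myotubularin phosphatases, rose by 0.87 ± 0.19, lost without any one of obese replicates 1 and 2 and lean replicates 1 and 3 (adjusted p up to 0.179). Glcci1 rose by 1.21 ± 0.27, lost without any one of obese replicates 1 and 2 and lean replicates 1 and 2 (adjusted p up to 0.203), and C2h4orf3 by 0.76 ± 0.16, lost without any one of obese replicates 1 and 2 and lean replicates 1 and 3 (adjusted p up to 0.153). Without 1 gene symbol, 1372318_at rose by 1.78 ± 0.32. Without any one array, the log2 difference ran from 0.82 to 1.30 for Aldh1l1, 0.82 to 1.12 for Reep6, 0.82 to 1.08 for Creg1, 0.68 to 1.02 for Mtmr7, 0.96 to 1.40 for Glcci1 and 0.65 to 0.86 for C2h4orf3. For 1367856_at the rise was 1.90 ± 0.35, lost without any one of obese replicate 3 and lean replicate 2 (adjusted p up to 0.0592), and for 1386901_at 1.04 ± 0.20, lost without any one of obese replicate 2 and lean replicates 1 and 2 (adjusted p up to 0.0829).

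Among the other falls, Cdh17, a cadherin named for liver and intestine, stood out by its level. It gave 200.5, 349 and 273 in obese livers, against 2173, 2040.4 and 2349 in lean livers, so that lean livers held a mean signal 7.98 times that of obese livers (log2 difference -2.94 ± 0.36, adjusted p = 0.000223). Crym, which binds thyroid hormone in the cytosol, gave 567, 579 and 455 in obese livers, against 1214, 1269.8 and 1006 in lean livers and fell by 1.10 ± 0.19 (adjusted p = 0.00458). The unnamed 1372727_at gave 193, 409 and 626 in obese livers, against 6293, 2724 and 6582 in lean livers, a log2 difference of -3.64 ± 0.65 (adjusted p = 0.00534). Nrep gave 759, 580.4 and 564 in obese livers, against 2021, 2329.9 and 2604 in lean livers, a log2 difference of -1.84 ± 0.42 (adjusted p = 0.0466) that was lost without any one of obese replicates 1, 2 and 3 and lean replicates 1, 2 and 3 (adjusted p up to 0.158). Acsm3, which activates medium-chain fatty acids, gave 347, 279 and 426 in obese livers, against 931, 984 and 874 in lean livers and fell by 1.37 ± 0.30 (adjusted p = 0.0342), lost without any one of obese replicates 1 and 2 and lean replicates 1, 2 and 3 (adjusted p up to 0.139).

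For other falls, of 0.62 to 1.16 in log2, the call but not the sign depended on which arrays were kept. Camlg, which helps insert proteins into the endoplasmic reticulum, fell by 1.16 ± 0.25, lost without any one of obese replicates 2 and 3 and lean replicates 1, 2 and 3 (adjusted p up to 0.11). Galnt1, which starts mucin-type sugar chains, fell by 1.14 ± 0.23 on 1 of 2 probe sets, lost without any one of obese replicate 2 and lean replicates 2 and 3 (adjusted p up to 0.116). Sat2, an acetyltransferase, fell by 1.09 ± 0.23, lost without any one of obese replicates 1 and 2 and lean replicates 1 and 2 (adjusted p up to 0.168). Gtpbp4, a GTPase of ribosome assembly, fell by 0.90 ± 0.19 on 1 of 2 probe sets, lost without any one of obese replicate 2 and lean replicates 1 and 3 (adjusted p up to 0.133). Dram2, an autophagy protein, fell by 0.88 ± 0.18, lost without any one of obese replicates 1 and 3 and lean replicates 1 and 2 (adjusted p up to 0.107). Il6st, the shared receptor chain gp130 of the interleukin 6 family, fell by 0.62 ± 0.14 on 1 of 3 probe sets, lost without any one of obese replicates 1, 2 and 3 and lean replicates 1 and 3 (adjusted p up to 0.139). Without any one array, the log2 difference ran from -1.01 to -1.35 for Camlg, -0.96 to -1.29 for Galnt1, -0.95 to -1.20 for Sat2, -0.78 to -1.01 for Gtpbp4, -0.73 to -1.03 for Dram2 and -0.57 to -0.69 for Il6st.

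Whether the liver differences are shared by the other tissues was tested as a difference of differences in 1 fit of all 54 arrays (11520 probe sets, limma). The obesity effect in liver differed from that in adipose tissue for 78 probe sets (0.677%), 34 higher and 44 lower in liver, and from that in muscle for 38 (0.33%), 21 higher and 17 lower. Of the 64 probe sets called in liver, 21 differed from adipose tissue, 19 from muscle and 11 from both. The 64 were picked on the same liver arrays, so these counts are no independent evidence of an effect particular to liver. Of the 21, 6 had signals under 100 on all 6 adipose arrays, and of the 19, 4 had such signals in muscle, where a difference between tissues restates the liver difference; 15 were brighter in each case. The same fit called 1 of the 64 in adipose tissue and 0 in muscle. The 1 called in adipose tissue was Xbp1. In adipose tissue it gave 2686, 2309 and 2212 in obese rats, against 7752, 4811 and 4118 in lean rats, where it fell by 1.16 (adjusted p = 5.16e-05), beside -1.18 ± 0.16 in liver. The test of the difference between the 2 falls gave -0.02 ± 0.25 (adjusted p = 0.992). For the rest of the 64, a missing call does not show that obesity had no effect in the other tissues. Angptl8 gave 2126, 1891 and 2495 in obese fat, against 747, 658 and 614 in lean fat, without passing (limma adjusted p = 0.118). Its difference of liver from adipose tissue was 0.17 ± 0.71 (adjusted p = 0.978), while the 21 probe sets above did differ.

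Among lipid genes, Scd differed between tissues. Adipose tissue gave 14372, 12921 and 13915 in obese rats, against 13628, 12095 and 11161 in lean rats, and the ranges overlapped. The liver effect exceeded that of adipose tissue by 3.22 ± 0.70 (adjusted p = 0.0137). Against muscle the difference was 1.75 ± 0.70 (adjusted p = 0.39) and did not pass, with 798, 915 and 1252 in obese muscle, against 229.8, 339.9 and 343 in lean muscle. Fasn had 13031, 11492 and 12784 in obese fat, against 10825, 11471 and 9039 in lean fat, and the difference of liver from adipose tissue, 1.99 ± 0.84 (adjusted p = 0.358), did not pass. In muscle Fasn had 536, 365 and 416 in obese rats, against 42.4, 32.9 and 305 in lean rats, also without overlap, and the difference of liver from muscle was 0.10 ± 0.84 (adjusted p = 0.987). Pklr (1387263_at) was under 10 on all 6 adipose arrays, too dim there for an effect of obesity to be compared. Elovl6 gave 1286, 1693 and 1324 in obese fat, against 547, 601 and 364 in lean fat, without overlap, and the difference of liver from adipose tissue was 0.36 ± 0.80 (adjusted p = 0.958). Plin3 differed from both tissues, by 1.46 ± 0.25 (adjusted p = 0.000575) against adipose tissue and 1.15 ± 0.25 (adjusted p = 0.0238) against muscle. So did Acsl5, by 1.12 ± 0.21 (adjusted p = 0.00281) against adipose tissue and 1.29 ± 0.21 (adjusted p = 0.00153) against muscle.

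Car3 was readily measured in all 3 tissues. Its 1386977_at gave 11727, 11519 and 11626 in obese fat, against 13441, 13156 and 10904 in lean fat, and 1347, 6545 and 1262 in obese muscle, against 3325, 4182 and 2297 in lean muscle. The fall in liver exceeded these, by a difference of -3.66 ± 0.59 (adjusted p = 0.000256) against adipose tissue and -3.26 ± 0.59 (adjusted p = 0.00251) against muscle. Sqle, which fell in liver, had 253, 242 and 226 in obese fat, against 68.6, 80.8 and 94.3 in lean fat, and the tissues differed by -3.97 ± 0.83 (adjusted p = 0.0085). Idi1 had 254, 278 and 299.9 in obese fat, against 161, 234 and 163 in lean fat, a difference of tissues of -2.68 ± 0.66 (adjusted p = 0.0336). Sult2a2, Cyp3a2 and Fabp7 were under 65 on every adipose and muscle array, so for these genes a difference between tissues restates that of liver.

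**Figure D4:**
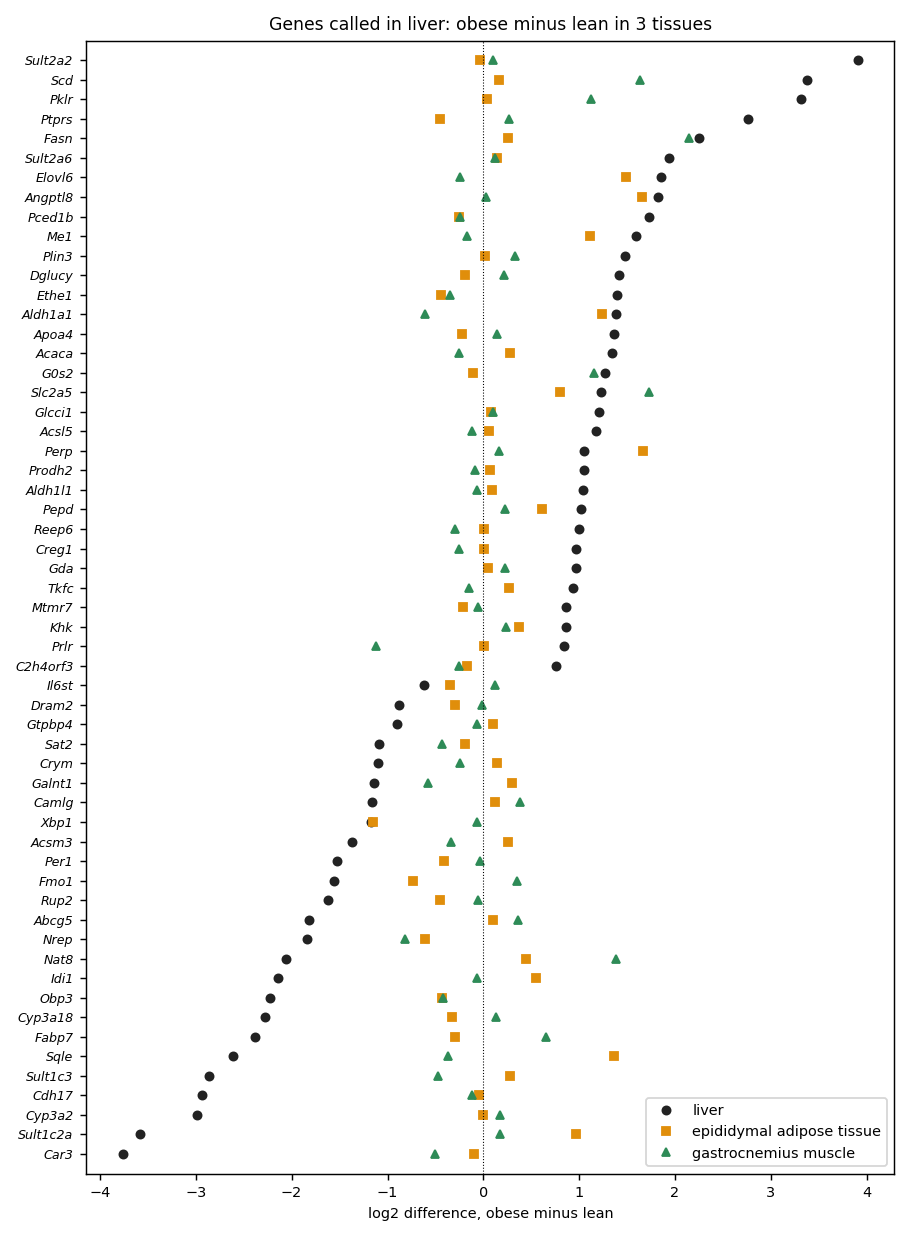
Log2 difference, obese minus lean, in liver (black circles), epididymal adipose tissue (orange squares) and gastrocnemius muscle (green triangles) for each named gene called in liver (y axis, 1 probe set a gene, ordered by the liver difference). The adipose and muscle points of most genes lie closer to 0 than the liver points. The genes were chosen by their liver difference, so this follows in part from the choice. Xbp1 has its liver and adipose points together near -1.2.

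The 12 livers of obese rats given a ligand give context for these levels. They entered the difference only through its spread and through the filter on mean signal, and any contrast with untreated obese livers would reuse the same 3 arrays, so levels are given without a test. Scd ran from 2588 to 22536 with a median of 11426 in ligand-treated obese livers, against 21367 to 35786 in untreated obese and 1374 to 4303 in lean livers. Pklr (1387263_at) ran from 69.7 to 1038 with a median of 487, against 778 to 1288 in untreated obese and 71.7 to 94.5 in lean livers. Sult2a2 ran from 1998 to 5651 with a median of 2949, against 1407 to 3582 in untreated obese and 106 to 168 in lean livers. For these 3 genes that rose, the treated range overlapped the untreated obese range, and that of Scd and Pklr also the lean range. Among genes that fell, Fmo1 ran from 1277 to 2847 with a median of 1651 in treated livers, against 512 to 781 in untreated obese and 1678 to 2039 in lean livers, so every treated signal was above the untreated obese ones. Cyp3a2 ran from 1853 to 11219 with a median of 4441, against 559 to 4066 in untreated obese and 9645 to 13153 in lean livers. Car3 (1386977_at) ran from 273 to 1266 with a median of 589, against 408 to 833 in untreated obese and 7117 to 7661 in lean livers, and no treated signal reached the lean range. Obp3 (1387985_a_at) ran from 124 to 3925 with a median of 429, against 2241 to 3440.5 in untreated obese and 10286 to 17898 in lean livers, also with no treated signal in the lean range.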

How the data were processed

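RNA of liver, 2 rats pooled per array, was hybridized to Affymetrix Rat Expression 230A arrays. The authors deposited linear intensity values (MAS5 signals, per the submitters' processing notes) for 15923 probe sets; the deposited values had a 2% trimmed mean of 500 on every array. No other normalization step is given in the sources used here. After 57 control probe sets were left out, 15866 remained, of which 12783 have 1 gene symbol, 312 several and 2771 none.

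From the deposited intensities, log2(signal + 20) was computed here, probe sets in the upper 60% of mean log2 values over the 18 liver arrays were kept (9519), and limma 3.58.1 in R 4.3.3 (lmFit, eBayes with trend) was fitted with 1 mean for each of the 6 liver groups. P-values were adjusted by Benjamini-Hochberg and called under 0.05. The tissue comparison used 1 fit of all 54 arrays (11520 probe sets). P-values measure the spread between arrays of pooled rats. The precision of a difference is limited by the number of arrays.

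The genes compared and the lists were chosen with earlier results of these data known. Genes are named as the 15 largest rises and falls, up to 4 called members of each list, a set of anchor genes given whatever their values, and the 5 largest tissue differences in each direction. All other named genes were chosen after their values were seen. A list uses the brightest probe set of each gene. Alternatives covered the pseudocount (5, 80), the filter, the normalization, the moderation, array weights, the arrays in the fit, the replicate block, the threshold and leaving out each array.

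The fit was also run on simulated data with independent normal noise. It recovered 49% of 100 changes of 1 in log2 and 88% of 100 changes of 2, and 3.52% of its calls were false. Replicate numbers shared between groups did not pair the arrays. Promoters came from RefSeq (GRCr8): the 250 bases before the start were searched, in place of the 300 bases planned.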

Additional observations from a re-analysis of the deposited data

Results flagged for a closer look

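The obesity effect, obese minus lean in log2, differed between liver and another tissue in the joint limma fit for the genes below, the 5 largest in each direction for each tissue. Against adipose tissue, the liver effect was higher for Scd by 3.22 ± 0.70 (adjusted p = 0.0137), Ptprs by 3.21 ± 0.43 (adjusted p = 1.27e-05) and Rgs16 by 3.12 ± 0.69 (adjusted p = 0.0151), of which Scd and Ptprs rose in liver. Sult2a2 and Pklr also have differences of 3.94 and 3.28, but both were under 10 on all 6 adipose arrays, so these values restate their rise in liver and no p is given. Rgs16, a regulator of G protein signals, had effects of 2.30 in liver and -0.82 in adipose tissue, where it did not pass (adjusted p = 0.768). Its mean signals were 2727 in obese and 535 in lean livers and 191 in obese and 387 in lean adipose tissue. It passed in liver in this joint fit (adjusted p = 0.00637) but not in the fit of the 18 liver arrays.

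The liver effect was lower than that of adipose tissue for another 5 genes, with differences of -4.93 ± 0.66 (adjusted p = 1.27e-05) for Cela1, -3.97 ± 0.83 (adjusted p = 0.0085) for Sqle, -3.66 ± 0.59 (adjusted p = 0.000256) for Car3, -3.29 ± 0.50 (adjusted p = 0.00012) for Gpnmb and -3.23 ± 0.78 (adjusted p = 0.0326) for Pdlim7. Sqle and Car3 fell in liver. Cela1, a pancreatic elastase, had mean signals of 166 in obese and 452 in lean livers and of 472 in obese and 24.4 in lean adipose tissue. Gpnmb, a glycoprotein of lipid-laden macrophages, had effects of -0.11 in liver and 3.17 in adipose tissue, with mean signals of 6286 in obese and 695 in lean adipose tissue. Pdlim7 had effects of -2.06 in liver and 1.18 in adipose tissue, where it did not pass (limma adjusted p = 0.535). Its mean signals were 18.1 in obese and 140 in lean livers and 174 in obese and 61.6 in lean adipose tissue. The obese liver signal of Pdlim7 is too low for a usable fold. The sizes of its liver effect and of its tissue difference are therefore uncertain.

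Against muscle, the liver effect was higher for Fos by 2.89 ± 0.66 (adjusted p = 0.0306), Pparg by 2.54 ± 0.43 (adjusted p = 0.00153) and Wdr24 by 2.48 ± 0.58 (adjusted p = 0.0361). Fos and Pparg differed mainly in muscle: effects were 0.53 in liver and -2.36 in muscle for Fos and 0.34 in liver and -2.20 in muscle for Pparg, whose mean signals were 43.6 in obese and 274 in lean muscle. Wdr24 had effects of 1.72 in liver and -0.76 in muscle, where it did not pass (adjusted p = 0.787). The liver effect was lower than that of muscle with differences of -3.44 ± 0.62 (adjusted p = 0.00251) for Nat8, -3.26 ± 0.59 (adjusted p = 0.00251) for Car3 and -2.82 ± 0.57 (adjusted p = 0.0155) for Cdh17, all of which fell in liver. Sult2a2, Ptprs, Cyp3a2 and Fabp7 have differences of 3.81, 2.49, -3.16 and -3.03, but were under 100 on all 6 muscle arrays, so these values restate the liver difference and no p is given. Nat8 had an estimate of the other sign in muscle (-2.06 in liver and 1.38 in muscle), which did not pass there (adjusted p = 0.306). Its muscle signals were low, with 127, 67.9 and 105 in obese rats, against 28.7, 12.3 and 38.2 in lean rats.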

How the results depend on the processing

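Of the alternatives run, none reversed the direction of any of the 64 calls. This does not cover the 20 named genes that did not pass, some of which differed by close to nothing and can change sign. At an adjusted p of 0.01, 36 probe sets passed in place of 64, 20 higher and 16 lower, and 3 genes of fatty acid synthesis and 1 of cholesterol synthesis kept their call. Without the trend in limma's prior, 21 were higher, with 3 genes of fatty acid synthesis and 1 of cholesterol synthesis. Without the filter on low signals, 1 gene of cholesterol synthesis was called. Leaving out 1 of the 6 arrays gave 43 to 57 calls, 25 to 32 higher and 18 to 27 lower; 2 to 5 genes of fatty acid synthesis rose, 1 to 2 of cholesterol synthesis fell, and all 5 male-biased genes kept their call. Fitted on only the 6 arrays compared, 62 probe sets passed, 44 of the 64 and 18 others. In that fit 20 calls were lost, among them Dglucy and Gda, which held without any single array. The rises also lost were Pced1b, Acaca, G0s2, Glcci1, Aldh1l1, Reep6, Tkfc, Mtmr7, Khk, Prlr and C2h4orf3. The falls lost were Il6st, Dram2, Gtpbp4, Sat2, Galnt1, Camlg and Per1. The highest limma adjusted p among them was 0.227, for Pced1b. A pair of fits was chosen after seeing the data: without the AG035029 array that stood apart, 70 probe sets passed, and a fit of all 54 arrays, whose spread also comes from the other tissues, passed 186 in liver, 86 higher and 100 lower. The liver effect differed from that of adipose tissue for 122 probe sets with a pseudocount of 80 in place of 78, and for 59 to 92 without 1 liver array; from that of muscle for 29 to 42. The cause of these changes was not tested. The replicate numbers are shared between groups, but same-numbered arrays did not deviate together (correlations of residuals -0.06, -0.02 and 0.07), so the numbers are not taken to pair the arrays. With the replicate block, 69 probe sets passed, 39 higher and 30 lower; 59 of the 64 calls held, and Glcci1, Mtmr7, Per1, Nrep and Sqle were lost. With the replicate block 7 genes of fatty acid synthesis rose, and the tissue differences numbered 75 against adipose tissue and 41 against muscle.

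The 3 arrays a group, each of 2 pooled rats, limit what can be seen. A gene that did not pass is not shown to be equal in the groups. An exact permutation test of 3 against 3 arrays cannot go below p = 0.1. Signals near 20 or below carry no usable fold, and the 10th percentile of signals was 20.2.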
